A study of Mus musculus with 4 samples.

Results

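The type 2 cytokine genes *Il4*, *Il5* and *Il13* were examined together with *Il9*, *Il10*, *Il24*, *Il3* and *Csf2* in CD8+ T cells recovered from melanomas. The 8 genes, like the gene lists set beside them below, were chosen by name with earlier results of these data known. In all, 15981 genes were listed in at least 1 library. All samples were Thy1.1+ Pmel-1 CD8+ T cells of the C57BL/6 strain, which carry a transgenic receptor for the melanoma antigen gp100. Tc9 cells were primed with IL-4, TGF-β and an antibody against IFN-γ, and Tc1 cells with IL-2, and both then grew in standard medium with IL-2, for 5 days of culture in all. The cells were injected intravenously into Thy1.2+ mice that carried 10-day subcutaneous B16 melanomas, and they were sorted from the tumors 14 days after transfer. Hosts of both groups had been given cyclophosphamide before the transfer, and received peptide-pulsed dendritic cells and IL-2 after it. RNA had been pooled across mice into 2 libraries per group. The number of mice in a pool is not known, and no test measures the spread between mice. For the cytokine genes the Tc1 group has 1 pool. Their tests take the spread from a trend over all genes, not from each gene's own pools. The ages and sexes of the mice are not given in the sources used here.

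Helper and cytotoxic T cells can be driven toward a type 2 program, in which IL-4 signals through STAT6 to the transcription factor GATA3. GATA3 opens the gene cluster that holds *Il4*, *Il13* and *Il5*, and TGF-β added to IL-4 directs the cells toward IL-9 instead. IL-9 is a growth factor for T cells and mast cells, IL-10 restrains inflammation, and IL-3 and GM-CSF (encoded by *Csf2*) act on myeloid cells. IL-24 is an IL-10 family cytokine whose gene lies close to *Il10*.

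The tables used here do not reach the same genes, because each lists genes by identifier up to a different point. Tc1 replicate 1 lists 1535 genes, Tc1 replicate 2 lists 7408, Tc9 replicate 1 lists 3152 and Tc9 replicate 2 lists 15442. None of the 8 cytokine genes lies in the range of Tc1 replicate 1, so their Tc1 level rests on 1 library. For 7 of the 8, Tc1 replicate 2 and both Tc9 libraries could be compared (the 3-library comparison). *Il24* is reached by Tc9 replicate 2 only. A gene that is not listed inside a library's range was taken as 0 counts. Depth, from the ratio of count to FPKM where a table was partial, lay between 30822953 and 31927162 counts in the 4 libraries. CPM values are counts scaled by depth and by edgeR's TMM factor. On that scale 3 counts, the upper limit set here for a count of 0, are 0.0971 CPM in Tc1 replicate 2. They are 0.0956 and 0.0950 CPM in Tc9 replicates 1 and 2. The exact 95% interval of a count of 0 reaches slightly higher, to 3.69 counts. Among the 2622 genes tested, 95% differed by less than 0.727 on the log2 CPM scale between the Tc9 libraries.

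The stretches upstream of *Il9* and of the clustered type 2 genes are shown because these 4 genes were higher in Tc9 cells and *Il9* lies on another chromosome than the cluster. RefSeq windows of 250 bases that end just before the annotated start (build GRCm38.p6) were found for 6 of the 8 genes, all but *Il10* and *Il24*. The *Il9* window is chr13:56482258-56482507, the *Il4* window chr11:53618666-53618915 and the *Il13* window chr11:53634703-53634952, all on the minus strand. The *Il5* window is chr11:53720544-53720793 on the plus strand. Capitals mark matches, on either strand, to AGATAA or TGATAA (here called the GATA core) and to GGAAAA (the NFAT core). They also mark TGANTCA (the AP-1 site) and GAGGAA (an ETS core of the PU.1 kind).
Il9: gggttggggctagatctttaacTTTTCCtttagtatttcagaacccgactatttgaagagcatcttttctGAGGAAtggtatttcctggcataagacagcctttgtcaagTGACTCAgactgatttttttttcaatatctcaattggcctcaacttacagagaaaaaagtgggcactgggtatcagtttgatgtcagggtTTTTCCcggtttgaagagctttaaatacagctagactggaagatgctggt
Il4: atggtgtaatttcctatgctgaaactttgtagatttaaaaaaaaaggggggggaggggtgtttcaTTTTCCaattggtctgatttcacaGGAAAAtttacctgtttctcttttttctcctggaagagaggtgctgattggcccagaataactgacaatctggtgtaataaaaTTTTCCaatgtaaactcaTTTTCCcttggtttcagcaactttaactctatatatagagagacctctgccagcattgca
Il13: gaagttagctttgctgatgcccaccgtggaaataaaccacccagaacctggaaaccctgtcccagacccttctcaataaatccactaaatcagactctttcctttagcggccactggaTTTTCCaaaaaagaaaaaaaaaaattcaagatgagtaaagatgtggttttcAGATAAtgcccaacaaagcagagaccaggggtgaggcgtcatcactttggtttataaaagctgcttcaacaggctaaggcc
Il5: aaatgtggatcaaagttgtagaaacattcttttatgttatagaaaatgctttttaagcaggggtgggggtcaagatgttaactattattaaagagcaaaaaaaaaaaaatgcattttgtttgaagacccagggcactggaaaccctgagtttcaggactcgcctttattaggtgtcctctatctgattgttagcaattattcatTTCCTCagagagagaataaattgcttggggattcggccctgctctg

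The *Il4* window held 4 copies of GGAAAA, which begin 185, 161, 78 and 60 bases before the start. A second *Il4* window, chr11:53617339-53617588, which is not at the annotated gene start, had no match to any motif searched. Of 32851 promoter windows of the same length, 20.4% held at least 1 copy and 0.0396% held at least 4. The *Il9* window held 2 copies of GGAAAA, 1 TGANTCA, which begins 140 bases before the start, and 1 GAGGAA, which begins 180 bases before it. TGANTCA was present in 6.75% of all windows and GAGGAA in 23.3%. The *Il5* window had a GAGGAA that begins 46 bases before the start. The *Il13* window had 1 GATA core, 81 bases before the start, 1 GGAAAA and 2 overlapping matches to TATAAA, which is present in 12.4% of windows and is not capitalized. A GATA core was found in 16.6% of all windows. It was also found in the *Il3* and *Csf2* windows, 101 and 247 bases before the start, and in neither the *Il9*, the *Il4* nor the *Il5* window. Only AGATAA and TGATAA were searched, and the *Il5* window holds the near form AGATAG on its other strand. The STAT motif TTCNNNGAA, held by 7.02% of windows, was in none of the 6. Other spacings were not searched, and the printed *Il9* and *Il4* windows hold the wider forms TTCTGAGGAA and TTCACAGGAA. Some of these matches are expected in any sequence, and no binding was measured.

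Of the 7 cytokine genes in the 3-library comparison, 6 passed the filter on low counts. Of these, 5 (*Il9*, *Il10*, *Il4*, *Il5* and *Il13*) were higher in Tc9 than in Tc1 cells and none was lower by edgeR's quasi-likelihood test at an adjusted p of 0.05. Among all 2622 genes tested, 12.5% were higher and 7.93% lower in Tc9 cells. The sixth, *Csf2*, did not pass the test, and *Il3* fell under the filter. In such bulk libraries, more cells of a producing kind and more RNA per cell cannot be told apart. All 5 calls were lost when no filter on low counts was applied. No gene of 3431 was then called by edgeR, the lowest adjusted p was 0.123, and 611 genes had an unadjusted p under 0.05.

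*Il9* (gene 16198, chr13:56479277-56482257), the cytokine that defines the Tc9 type, had 3 counts in Tc1 replicate 2. It had 2601 counts in Tc9 replicate 1 and 2667 in Tc9 replicate 2. The Tc1 value was no higher than the limit that a count of 0 allows, and the Tc9 libraries lay far above it and close to each other. In CPM the level was 0.0971 in Tc1 and 83.7 ± 1.15 (SD, n = 2) in Tc9 cells. The ratio of counts was 862-fold, with an exact 95% counting interval of 295- to 4181-fold. edgeR gave a log2 fold change of 9.69 (SE 0.52, adjusted p = 7.74e-69). Over the alternatives the adjusted p ran from 1.91e-69 to 0.123, and the highest value other than that without a filter was 0.000685. Scaled for gene length, *Il9* stood at 0.24 FPKM in the Tc1 library, above 24.9% of the genes listed in the shared range. In the Tc9 libraries it stood at 212.23 and 218.17 FPKM, above 97.2% and 97.3% of the listed genes.

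**Figure D1:**
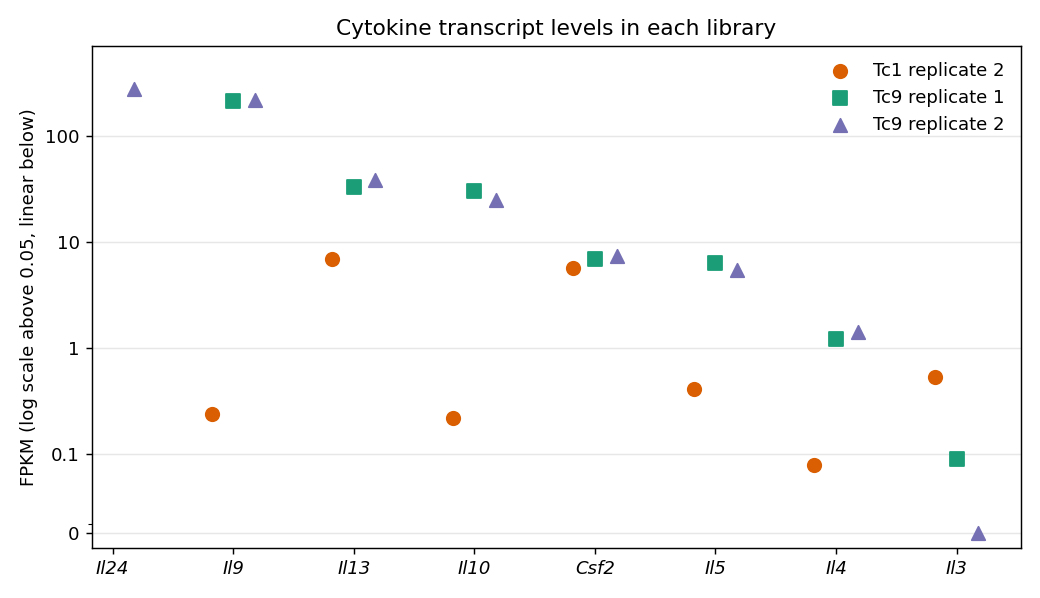
FPKM of the 8 cytokine genes (vertical axis, log scale above 0.05 and linear below) in Tc1 replicate 2 and both Tc9 libraries, each point 1 library. *Il9* rises from 0.24 to 212.23 and 218.17, *Csf2* lies between 5.62 and 7.37 in all 3 libraries, and *Il24* has a point for Tc9 replicate 2 only.

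Among the type 2 cytokines, *Il13* was the most abundant transcript in both cell types. *Il13* (gene 16163, chr11:53631323-53634702), which acts on epithelium, smooth muscle and macrophages, had 234 counts in Tc1 replicate 2, 1107 in Tc9 replicate 1 and 1284 in Tc9 replicate 2. It was therefore well detected in Tc1 cells too, at 7.57 CPM against 38.0 ± 3.83 CPM (SD, n = 2) in Tc9 cells. The ratio was 5.02-fold (exact counting interval 4.38 to 5.76), and edgeR gave a log2 fold change of 2.33 (SE 0.28, adjusted p = 9.39e-15, 3.28e-15 to 0.127 over the alternatives).

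*Il5* (gene 16191, chr11:53720794-53725103), the growth and survival factor of eosinophils, had 18 counts in Tc1 replicate 2, 272 in Tc9 replicate 1 and 234 in Tc9 replicate 2. Neither Tc9 library came near the Tc1 count. In CPM the level was 0.583 in Tc1 and 8.04 ± 0.886 in Tc9 cells (SD, n = 2). The ratio was 13.8-fold (8.64 to 23.5), with a log2 fold change of 3.78 by edgeR (SE 0.39, adjusted p = 1.47e-19, 4.34e-20 to 0.123 over the alternatives).

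*Il4* (gene 16189, chr11:53612460-53618665), which drives type 2 polarization and was itself part of the Tc9 culture, had 4 counts in Tc1 replicate 2, 36 in Tc9 replicate 1 and 37 in Tc9 replicate 2. It was the scarcest of the transcripts that rose. Its level was 0.129 CPM in Tc1 and 1.16 ± 0.0179 CPM in Tc9 cells (SD, n = 2), a ratio of 8.96-fold with a wide counting interval of 3.35 to 33.8. The log2 fold change was 3.12 by edgeR (SE 0.71, adjusted p = 0.000142, 0.000124 to 0.141 over the alternatives). DESeq2 gave an adjusted p of 0.0403. The length that the authors' tables used for *Il4* differed between libraries, at 1773 bases in Tc1 replicate 2 and 1089.51 and 979.14 in the Tc9 libraries, so its FPKM values of 0.08, 1.22 and 1.43 are not on 1 length.

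*Il10* (gene 16153, chr1:131019845-131024970), which encodes the inhibitory cytokine IL-10, had 8 counts in Tc1 replicate 2, 1094 in Tc9 replicate 1 and 891 in Tc9 replicate 2. Both Tc9 values lay far above the Tc1 value, and the gap between them was wider than for *Il9*. The level was 0.259 CPM in Tc1 and 31.5 ± 4.69 CPM in Tc9 cells (SD, n = 2). The ratio was 122-fold (61.7 to 282), and edgeR gave a log2 fold change of 6.91 (SE 0.43, adjusted p = 1.09e-51, 4.46e-52 to 0.123 over the alternatives). *Foxp3*, the defining factor of regulatory T cells, which are a known source of IL-10, had 34.61 counts in Tc1 replicate 2 and 1591.62 in Tc9 replicate 2, the only libraries that reach it. Its part in the *Il10* difference was not tested. *Cd4* was at 50 and 45 counts in Tc1 cells and at 56 and 58 in Tc9 cells, beside 19330 to 21622 for *Cd8a*. *Cd40lg*, the other marker of CD4+ cells looked at, stood at 11 counts in Tc1 against 2 in Tc9 replicate 2, and the 3 markers summed to 2.93 CPM in Tc1 and 52.3 CPM in Tc9 replicate 2, of which *Foxp3* made up 1.12 and 50.4 CPM.

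*Il24* (gene 93672, chr1:130882074-130887411) had 8328 counts in Tc9 replicate 2 (exact Poisson interval 8150 to 8509), which is 264 CPM. It has no value in the other 3 libraries, so no comparison of Tc9 with Tc1 cells could be made and the value has no replicate. At 276.97 FPKM it ranked 213 of the 15442 genes listed in that library, ahead of *Il9* at rank 284 and *Ifng* at rank 519. *Il19* and *Il20*, the other IL-10 family genes beside it, had 2 counts and 1 count in the same library. *Fcmr*, at the same locus, had 367.

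*Csf2* (gene 12981, chr11:54247270-54249899), which encodes GM-CSF, had 159 counts in Tc1 replicate 2, 190 in Tc9 replicate 1 and 203 in Tc9 replicate 2. The levels were 5.15 CPM in Tc1 and 6.24 ± 0.267 CPM in Tc9 cells (SD, n = 2). The ratio of counts was 1.21-fold (1.01 to 1.47), and the log2 fold change of 0.28 did not pass edgeR's test (SE 0.29, adjusted p = 0.543, 0.381 to 0.747 over the alternatives). *Il3* (gene 16187, chr11:54265085-54267279), a growth factor for blood cell progenitors and mast cells, had 12 counts in Tc1 replicate 2, 2 in Tc9 replicate 1 and 0 in Tc9 replicate 2. It was the cytokine of this group whose counts were lower in both Tc9 libraries than in the Tc1 library. The ratio of Tc1 to Tc9 cells was 12.2-fold (exact counting interval 2.72 to 112). The log2 ratio of Tc9 to Tc1, with no prior count, was -3.61, and -2.61 without Tc9 replicate 2. Without Tc9 replicate 1 the Tc9 level is 0 and no such ratio can be given. *Il3* was too scarce for the filter, and without a filter edgeR gave a log2 fold change of -3.46 with an adjusted p of 0.282.

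**Figure D2:**
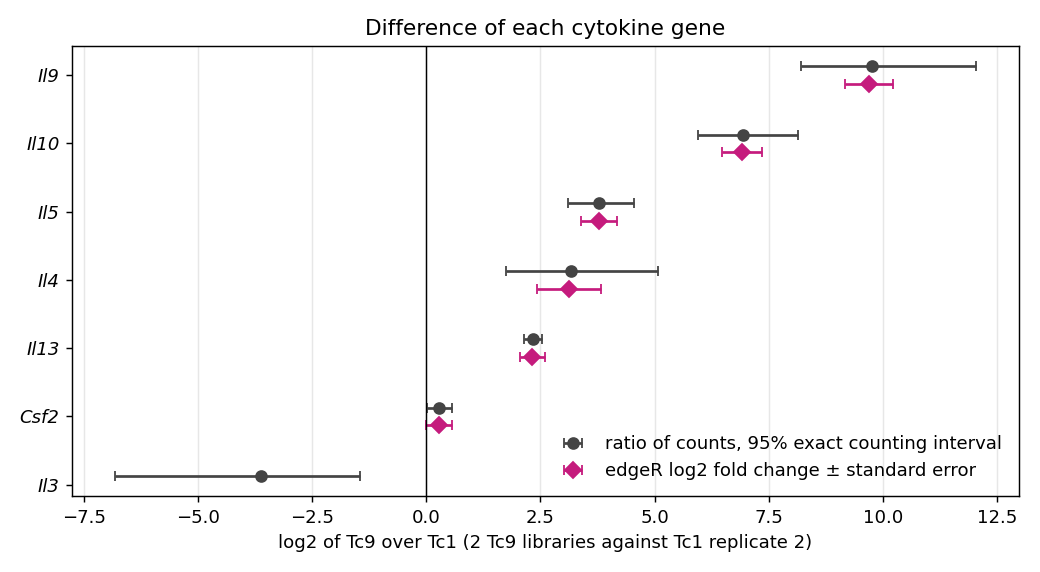
Log2 ratio of Tc9 cells over Tc1 replicate 2 (horizontal axis) for the 7 genes that could be compared. Circles are ratios of counts with 95% exact counting intervals, and diamonds are edgeR log2 fold changes with standard errors. *Il9* and *Il10* lie farthest to the right at 9.69 and 6.91, *Csf2* lies at 0.28, and *Il3*, at -3.61, has no fitted value.

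Ordered by FPKM, the 7 transcripts that both Tc9 libraries reach ran *Il9* (215 ± 4.20, SD, n = 2), *Il13* (35.9 ± 3.95), *Il10* (27.5 ± 3.83), *Csf2* (7.11 ± 0.368), *Il5* (5.86 ± 0.594), *Il4* (1.33 ± 0.148) and *Il3*. *Il24*, at 276.97 FPKM in Tc9 replicate 2 only, is not part of this order. The ranges of neighbors in this order did not overlap. The smallest gaps relative to the spread were those between *Il13* and *Il10*, 8.39 FPKM against a combined SD of 5.50, and between *Csf2* and *Il5*, 1.25 FPKM against 0.699. With 2 libraries these gaps were not tested. In Tc1 replicate 2 the order was *Il13* (6.84), *Csf2* (5.62), *Il3* (0.54), *Il5* (0.41), *Il9* (0.24), *Il10* (0.22) and *Il4* (0.08).

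**Figure D3:**
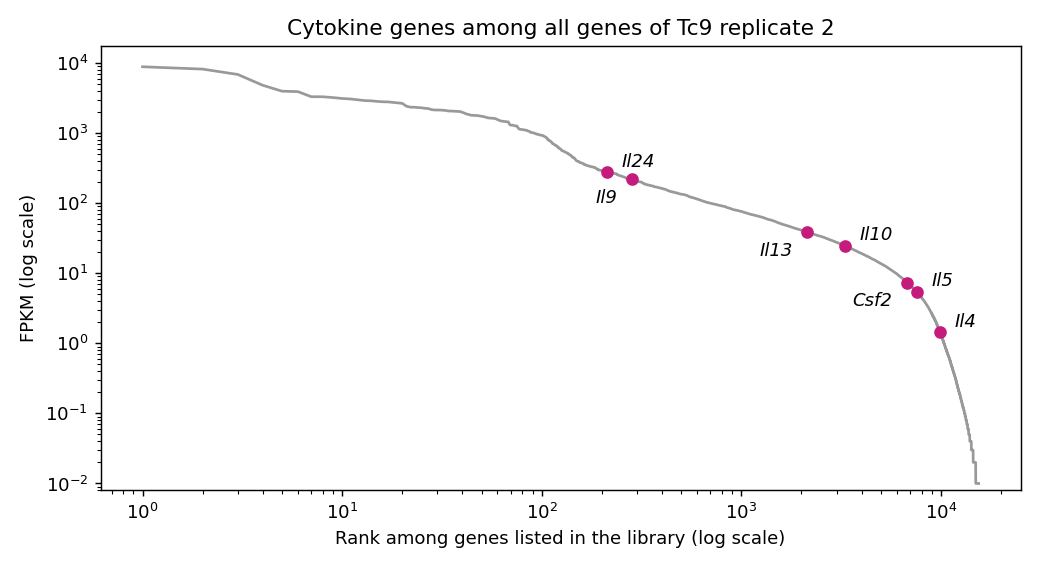
FPKM (vertical axis, log scale) against rank among the 15442 genes listed in Tc9 replicate 2 (horizontal axis, log scale), with the cytokine genes marked on the curve of all genes. *Il24* at rank 213 and *Il9* at rank 284 lie near the top, and *Il4* at rank 9864 lies lowest of those shown.

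Ratios of FPKM within a library show how the mixture of cytokine transcripts differed. *Il9* over *Ifng*, the hallmark cytokine of Tc1 cells, was 0.000544 in the Tc1 library and 1.52 and 1.65 in the Tc9 libraries. *Il9* over *Il13* was 0.0351 in the Tc1 library and 6.42 and 5.64 in the Tc9 libraries. The summed FPKM of *Il4*, *Il5* and *Il13* was 7.33 in Tc1 and 40.6 and 45.5 in Tc9 cells, so the *Il9* level alone exceeded that sum in both Tc9 libraries. *Il13* over *Il5* was 16.7 in the Tc1 library and 5.27 and 7.11 in the Tc9 libraries. In Tc9 replicate 2 the ratio of *Il24* to *Il9* was 1.27.

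On chromosome 11, *Il4* and *Il13* lie 12.7 kb apart and *Il13* and *Il5* 86.1 kb apart, while *Csf2* lies a further 522 kb from *Il5* and 15.2 kb from *Il3*. The 3 type 2 genes at one end rose in Tc9 cells, while *Csf2* at the other did not pass the test and *Il3* was not tested. Between the replicate 2 libraries, which cover more of this region, the log2 ratio of Tc9 over Tc1 was 3.18 for *Il4*, 2.43 for *Il13* and 3.67 for *Il5*. It was 0.32 for *Csf2*, and the counts of *Il3* put its ratio below -1.51. *Rad50*, the DNA repair gene whose introns hold control elements of the cluster, stood at 3116 counts in Tc1 against 3043 in Tc9 replicate 2 (log2 ratio -0.065, interval -0.14 to 0.0075). *Kif3a*, a motor protein gene next to *Il4*, had 536 counts in Tc1 replicate 2 against 1399 and 1225 in Tc9 cells, a log2 fold change of 1.26 by edgeR (SE 0.26, adjusted p = 2.17e-05). *P4ha2*, a collagen prolyl hydroxylase gene farther along, stood at 176 counts in Tc1 against 808 in Tc9 replicate 2 (log2 ratio 2.17), and *Irf1* rose by 0.70 (adjusted p = 0.0416 by edgeR). *Acsl6*, an acyl-CoA synthetase gene beside *Il3*, stood lower in Tc9 cells, at 167 against 99 counts (log2 ratio -0.79, interval -1.16 to -0.42), and *Slc22a5*, a carnitine transporter gene, stood higher (log2 ratio 0.80, interval 0.63 to 0.98), both within 2-fold. Without a filter neither *Kif3a* nor *Irf1* was called. Between the replicate 2 libraries, which have no replicate within a group, 10.6% of 6161 genes were more than 2-fold higher and 5.42% more than 2-fold lower in Tc9 cells.

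**Figure D4:**
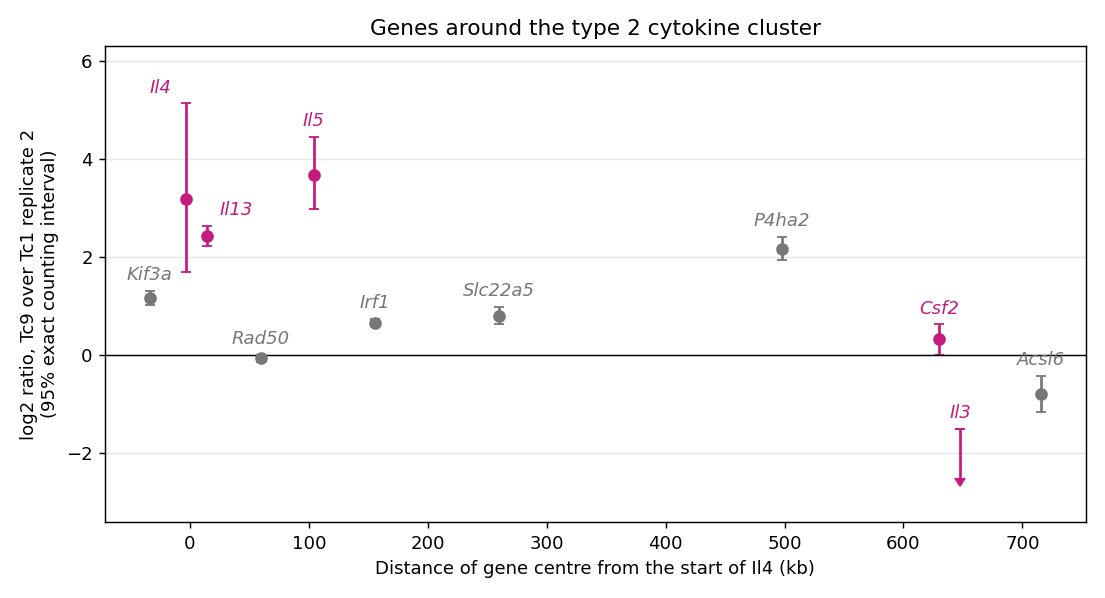
Log2 ratio of Tc9 over Tc1 replicate 2 (vertical axis, 95% exact counting intervals) for genes around the type 2 cytokine cluster, by distance of the gene's centre from the start of *Il4* in kb (horizontal axis). The cytokine genes are in pink and their neighbors in gray. *Il4*, *Il13* and *Il5* lie at 3.18, 2.43 and 3.67, *Rad50* between *Il13* and *Il5* lies at -0.065, and the arrow at *Il3* marks an upper bound.

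Of 15 receptor genes for these cytokines, 9 were tested, 1 was higher (*Il4ra*), 1 lower (*Il10rb*) and 7 did not pass the test, with a median log2 fold change of 0.33. Over all 2622 genes tested, 12.5% were higher and 7.93% lower, with a median of 0.02, so the receptor counts were near the background. *Il4ra*, the chain that binds IL-4 and serves IL-13 as well, had 11551 counts in Tc1 replicate 2 against 33931 and 40320 in Tc9 cells, with a log2 fold change of 1.66 (SE 0.25, adjusted p = 2.60e-09 by edgeR). *Il9r*, the specific chain of the IL-9 receptor, had few counts in all 3 libraries, 23 in Tc1 and 11 and 10 in Tc9 cells (log2 fold change -1.15, SE 0.60, adjusted p = 0.174 by edgeR). Its partner *Il2rg*, the common gamma chain, had 10068 counts in Tc1 and 9253 and 9935 in Tc9 cells (log2 fold change -0.10). *Il10rb*, the shared chain of the IL-10 receptor, fell by 0.72 on the log2 scale (adjusted p = 0.0153 by edgeR), while the log2 fold change of *Il10ra*, the specific chain, was 0.27 (adjusted p = 0.510 by edgeR). *Il5ra* and *Il13ra1* had at most 3 counts in any of the 3 libraries. *Csf2rb* and its near-identical copy *Csf2rb2* share reads, and neither passed the test. *Il5ra*, *Il13ra1* and *Il20ra* were the 3 genes under the filter, *Il20rb* was within 2-fold between the replicate 2 libraries, and *Il13ra2* and *Il22ra1* were not listed.

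Of 13 genes of the JAK-STAT pathway, through which these receptors signal, 6 were tested. The kinase genes *Jak2* and *Jak3* and the feedback inhibitor *Socs1* were higher in Tc9 cells, and *Jak1*, *Socs3* and *Cish* did not pass, with a median of 0.73, beside 12.5% higher, 7.93% lower and a median of 0.02 over all genes of the same comparison. *Socs1* had 1467 counts in Tc1 replicate 2 against 2404 and 3646 in Tc9 cells (log2 fold change 1.02, SE 0.27, adjusted p = 0.00149 by edgeR). *Jak3*, the partner of the common gamma chain, rose by 0.92 on the log2 scale (SE 0.26, adjusted p = 0.00412 by edgeR) and *Jak2* by 0.93 (SE 0.27, adjusted p = 0.00421). Of 6 genes that only the replicate 2 libraries could compare, *Socs2* was more than 2-fold higher, at 2829 counts in Tc1 and 6585 in Tc9 cells. The other 5 were STAT genes within 2-fold, among them *Stat6*, the mediator of IL-4 and IL-13 signals, at 4588 and 5401 counts, and *Stat3*, used by IL-9 and IL-10, at 11687 and 17520. *Tyk2* was reached by Tc9 replicate 2 only.

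Of 26 genes for transcription factors known to act on these cytokine genes, 14 were tested. *Maf*, *Gata3*, *Crem*, *Irf4* and *Id3* were higher in Tc9 cells, *Prdm1* was lower and 8 did not pass the test, with a median of 0.23. The 5 higher calls come from the 3-library comparison, in which 12.5% of all genes were higher and 7.93% lower, with a median of 0.02. *Maf*, an activator of *Il4* and *Il10*, had 38 counts in Tc1 replicate 2 against 936 and 874 in Tc9 cells (log2 fold change 4.54, SE 0.35, adjusted p = 1.22e-35 by edgeR). *Gata3*, the type 2 master factor, was already present in Tc1 cells at 829 counts and reached 5037 and 6839 in Tc9 cells (log2 fold change 2.81, SE 0.30, adjusted p = 1.24e-18 by edgeR). *Irf4*, needed for *Il9* in T cells, had 18150 counts in Tc1 and 44730 and 42747 in Tc9 cells, a log2 fold change of 1.24 (SE 0.24, adjusted p = 6.56e-06 by edgeR). *Crem*, a cAMP-responsive factor, rose by 1.50 (adjusted p = 6.37e-07 by edgeR) and *Id3*, an inhibitor of E proteins, by 1.05 (adjusted p = 0.0041). *Prdm1*, which encodes the effector factor Blimp-1, is reached by all 4 libraries. The Tc1 libraries held 336 and 359 counts of it. The Tc9 libraries held 89 and 108, so the groups did not overlap, and the gene fell by 1.81 on the log2 scale (SE 0.17, adjusted p = 1.06e-05 by edgeR, 0.00276 without a filter). In that 4-library comparison 18.4% of 1284 genes were higher and 17.1% lower in Tc9 cells.

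Some factors could be set side by side in the replicate 2 libraries only. *Nfil3*, which acts on *Il13* and *Il10*, had 1733 counts in Tc1 and 4375 in Tc9 cells, more than 2-fold higher. *Bhlhe40*, a repressor of *Il10*, had 6398 and 3644 counts, within 2-fold. *Spi1*, the gene of PU.1, a factor tied to *Il9* in helper T cells, had 2 counts in Tc1 against 1 in Tc9 replicate 2. The other 6 were within 2-fold. *Batf*, *Tbx21* and *Foxo1* were reached by Tc9 replicate 2 only, at 1938, 4319 and 7341 counts.

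Among 20 genes for cytokines of other kinds, 4 were tested, of which *Ifng*, *Lta* and *Il16* were lower in Tc9 cells and *Il11* did not pass the test, with a median of -0.90. The share lower over all genes of that comparison was 7.93%, the share higher 12.5% and the median 0.02. *Ifng* had 15303 counts in Tc1 replicate 2 against 5097 and 4700 in Tc9 cells, and fell by 1.67 on the log2 scale (SE 0.25, adjusted p = 4.34e-10 by edgeR). It therefore remained a high transcript in Tc9 cells. *Lta*, which encodes lymphotoxin-α, fell by 1.13 (adjusted p = 3.38e-05 by edgeR) and *Il16*, a chemoattractant of CD4+ cells, by 0.67 (adjusted p = 0.0413). *Tnf*, with 1459 counts in Tc1 and 1114 in Tc9 replicate 2, and *Tgfb1*, with 10438 and 17064, were within 2-fold. *Il2*, *Il6*, *Il17a* and *Areg* had at most 5 counts in any of the 3 libraries. Of the rest, 7 were reached by Tc9 replicate 2 only and 3 were not listed. Without a filter on low counts, *Prdm1* alone of the 14 receptor, pathway, factor and cytokine genes called kept its call.

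**Figure D5:**
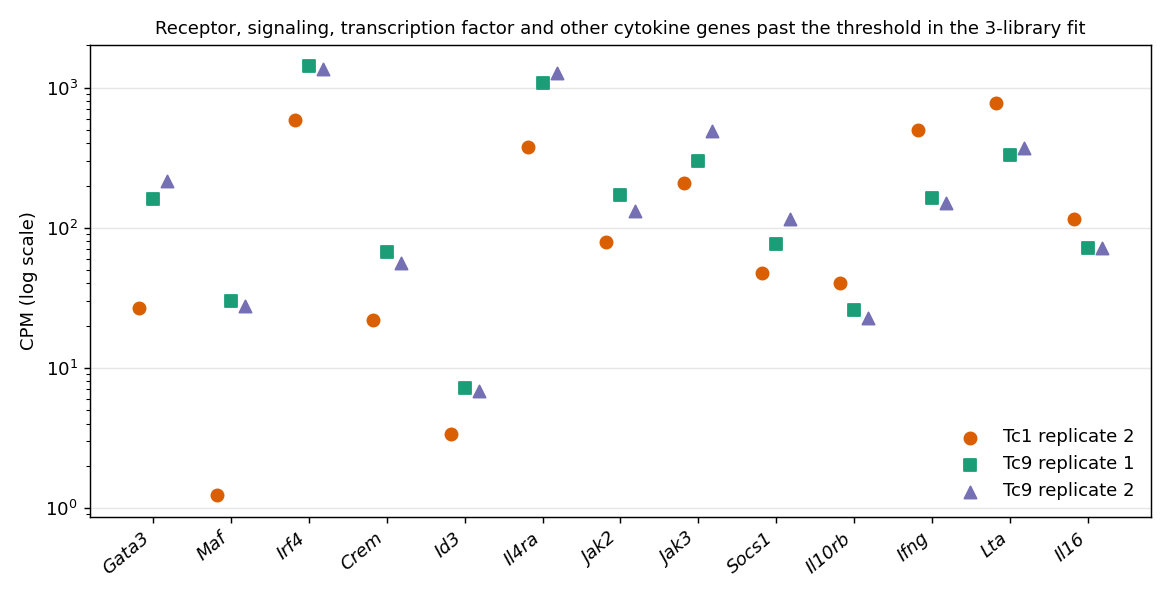
CPM (vertical axis, log scale) of the receptor, signaling, transcription factor and other cytokine genes past an adjusted p of 0.05 in the 3-library comparison, each point 1 library. *Maf* and *Gata3* show the widest gaps between Tc1 replicate 2 and the Tc9 libraries, and *Il10rb*, *Ifng*, *Lta* and *Il16* lie lower in the Tc9 libraries.

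Markers of other cells that make these cytokines were looked at in the same libraries. *Cd8a* stood at 21622 and 21532 counts in Tc1 cells and at 21166 and 19330 in Tc9 cells, with an adjusted p of 0.544 by edgeR. Of the 10 CD8+ T cell markers, 9 were tested and 5 did not pass. The 4 called are from the 4-library comparison, where 18.4% of all genes were higher and 17.1% lower. *Cd3e* (log2 fold change 0.73, adjusted p = 0.00669 by edgeR) and *Cd3g* (0.49, adjusted p = 0.00856) were higher in Tc9 cells. *Cd2* (-0.44, adjusted p = 0.0105 by edgeR) and *Cd5* (-0.61, adjusted p = 0.00304) were lower. Of 10 mast cell and basophil markers, *Mcpt4*, *Cma1* and *Prss34* were not listed, and *Cpa3*, *Mcpt8*, *Fcer1a*, *Ms4a2* and *Tpsb2* had at most 3 counts in any of the 3 libraries. *Kit*, which mast cells share with other cells, had 142 counts in Tc1 and 389 and 366 in Tc9 cells (log2 fold change 1.38, adjusted p = 1.97e-05 by edgeR). *Hdc* had 9 counts in Tc1 and 11 and 16 in Tc9 cells. Summed over the 9 of these markers in the range of both replicate 2 libraries, the level was 5.05 CPM in Tc1 and 12.1 CPM in Tc9 replicate 2. Of the eosinophil and group 2 innate lymphoid cell markers, *Epx* and *Prg2* were not listed. *Il1rl1*, the IL-33 receptor, had 181 counts in Tc1 and 38 and 26 in Tc9 cells (log2 fold change -2.52, adjusted p = 3.04e-12 by edgeR), and the sum of 5 markers was 6.02 CPM in Tc1 and 0.855 CPM in Tc9 replicate 2. Myeloid and B cells can make IL-10. The sum of 7 myeloid markers was 7.87 CPM in Tc1 and 14.5 CPM in Tc9 replicate 2. *Lyz2* had at most 3 counts, and *Cd68*, which rose in Tc9 cells (log2 fold change 0.84, adjusted p = 0.00173 by edgeR), made up most of both sums. Of the B cell markers, *Cd79b* rose from 155 counts in Tc1 to 380 and 473 in Tc9 cells (log2 fold change 1.43, adjusted p = 6.64e-06 by edgeR), *Cd79a* had 8 counts in Tc1 and 12 and 10 in Tc9 cells, and *Ms4a1* had at most 4 counts in any of the 3 libraries. The sum of 6 melanoma markers was 2.65 CPM in Tc1 and 4.26 CPM in Tc9 replicate 2. Without a filter on low counts the calls of *Cd3e*, *Kit*, *Il1rl1* and *Cd79b* were lost. The part of these cells in the cytokine differences was not tested.

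Genes whose levels across the 3 libraries lay closest to those of *Il9* and *Il10* were found by the Euclidean distance between log2 CPM values centered on each gene's mean, over 3 libraries. Closest to *Il9* were *Gja5*, a gap junction gene (distance 1.44), *Htr1b*, a serotonin receptor gene (1.71), and *Efna5*, an ephrin gene (1.72). *Gja5* went from 0 counts in Tc1 replicate 2 to 130 and 99 in the Tc9 libraries, which is at least 37.5-fold higher than a floor of 3 counts in the Tc1 library. Closest to *Il10* were *Htr1b* (0.505), *Itgae* (0.523) and *Efna5* (0.598). *Itgae*, which encodes the tissue residence integrin CD103, had 59 counts in Tc1 and 4599 and 4619 in Tc9 cells. With 3 libraries this likeness reflects the size of the difference and the gap between the Tc9 libraries.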

How the data were processed

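Per gene and library the authors deposited expected counts (estimates of reads that need not be whole, not normalized), FPKM values (normalized to gene length and library size) and a gene length in bases. The submitters' processing notes name mm10, the same assembly as GRCm38, and the aligner and counting program are not given in the sources used here. The tables used here reach different genes, so each comparison used the genes that its libraries reach. Rounded counts were scaled by TMM and tested, two-sided, with edgeR 4.0.16 (glmQLFTest, filterByExpr at a minimum count of 10, Benjamini-Hochberg adjustment) in R 4.3.3, over all genes of the shared range, and the test was tried on simulated data first. In the 3-library fit 1 residual degree of freedom is left, the Tc1 library is assumed to vary like the Tc9 libraries, and every gene was given the spread of the trend over all genes. Where only the replicate 2 libraries reach a gene, a 2-fold difference is given without a test. DESeq2 1.42.0 and limma 3.58.1 on log2(FPKM + 1) or log2(FPKM + 0.1) were alternatives. Counting intervals are exact 95% intervals, and intervals and the floor of 3 counts cover counting error only.

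The genes named come from the 8 cytokine genes, their pathway lists, their neighbors on the chromosome, lists of cell type markers and the 3 genes nearest to *Il9* and *Il10* among those with a mean Tc9 count of at least 10. Members and lists were chosen with earlier results of these data known. Over genes reached by all 4 libraries, chi-square per gene was 43.1 between the Tc9 and 4.54 between the Tc1 libraries, beyond sampling noise in both pairs. The result of 1 marker gene is not reported here.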

Additional observations from a re-analysis of the deposited data

Results flagged for a closer look

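*Il24* had 8328 counts in Tc9 replicate 2. It was picked out because the gene lies outside the range of the Tc1 libraries and of Tc9 replicate 1, and its signal there was above the 3 counts that a count of 0 allows.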

How the results depend on the processing

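Without a filter on low counts, 5 cytokine genes kept their direction and lost their call: *Il9* (log2 fold change 9.69, adjusted p = 0.123 by edgeR), *Il10* (6.91, 0.123), *Il5* (3.78, 0.123), *Il13* (2.33, 0.127) and *Il4* (3.12, 0.141). The number of genes higher and lower in the 3-library comparison, 328 and 208, was 217 and 121 with DESeq2, 0 and 0 without a filter, 197 and 78 with limma on log2(FPKM + 0.1), and 112 lower on log2(FPKM + 1). With TMM factors of the 4-library range it was 197 and 86, and with the prior degrees of freedom of that fit 218 and 116. These 2 settings were chosen after seeing the data, and with the second the adjusted p of *Il9* was 4.53e-06 and of *Il4* 0.0119 by edgeR. Pathway genes called, 9 higher and 5 lower, were 0 and 1 without a filter. In the 4-library comparison, 236 higher and 219 lower became 156 and 139 without a filter. The cause was not tested.

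With either Tc9 library left out, the log2 ratio with a prior count of 0.5 was 9.52 to 9.54 for *Il9*, 6.68 to 6.99 for *Il10*, 2.998 to 3.03 for *Il4* and -4.68 to -2.34 for *Il3*. The prior draws these toward 0, and they are not of the same form as the reported values. With no prior, a form added after seeing the data, the ratio was 9.74 to 9.77 for *Il9*, 6.77 to 7.07 for *Il10* and 3.15 to 3.18 for *Il4*. With each of the 4 libraries left out in turn, the 4-library counts ranged from 74 to 407 higher and from 45 to 433 lower. They were 74 and 45 without Tc1 replicate 1, 86 and 61 without Tc1 replicate 2, 407 and 433 without Tc9 replicate 1, and 368 and 359 without Tc9 replicate 2. A replicate block could be fitted in the 4-library range only, and gave 232 higher and 214 lower. Replicate numbers are not known to mark shared mice, and the deviations of same-numbered libraries correlated at -0.065.

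None of the results recomputed reversed its direction. The Tc1 levels of the cytokine genes rest on 1 library, and those of *Il9*, *Il4* and *Il10* on 3, 4 and 8 counts. *Il4* gave no value at a minimum count of 50, and *Il24* had no comparison to vary.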
